A study of Mus musculus with 9 samples.

Results

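Rab genes encode small GTPases that give the membranes of a cell their identity. Of the 14444 genes with values in the deposited table, 53 had a symbol made of Rab, a number and at most 1 further letter, and these 53 are described here. Total RNA depleted of ribosomal RNA was sequenced in 9 libraries, made from prefrontal cortex of mice that were 5 to 8 postnatal weeks old. Shank3 mutant mice given UNC0642, Shank3 mutant mice given saline and wild-type mice given saline had 3 libraries each. UNC0642 is a small-molecule inhibitor of EHMT1 and EHMT2, enzymes that methylate histone H3, and was given by intraperitoneal injection on 3 days, 1 mg per kg each time and 1 time a day. Shank3 is a scaffold of excitatory synapses, and which Shank3 allele the mutants carry is not named in the labels. Whether the 3 libraries of a group are 3 animals is not stated either, so the p-values reflect variation between libraries, part of which may be technical.

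A Rab protein cycles between a GDP-bound form in the cytosol and a GTP-bound form on a membrane. Exchange factors switch it on, GTPase-activating proteins switch it off, and in the GTP-bound form it recruits effectors that move, tether or fuse vesicles. A geranylgeranyl transferase attaches lipid anchors to cysteines near its end, and GDP dissociation inhibitors return it to the cytosol. In neurons these steps serve synaptic vesicle release, the recycling of postsynaptic receptors and transport along axons and dendrites.

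The deposited values carry an adjustment by the authors that makes the mean log2 value of every gene equal in 2 sets of libraries, with wild type and UNC0642 replicates 2 and 3 on one side and the saline mutants and UNC0642 replicate 1 on the other. Differences between groups in these values are therefore partly set by that step, and those between saline mutants and wild type, which lie wholly on opposite sides, largely so. Whole reads from before the adjustment were recovered for every gene, with 100% of values whole within 0.02 reads, and came to between 12035098 and 16165483 reads per library. In the recovered reads UNC0642 replicate 3 stood apart from the other 2 UNC0642 libraries. On the first principal component, with 53.1% of the variance, it scored 28.4, beside 24.7 to 41.1 in wild type, while the other UNC0642 and the saline mutant libraries scored between -28.1 and -21.4. Of 29 genes at least 8-fold apart between saline mutants and wild type, 28 had UNC0642 replicate 3 nearer wild type, and 0 of the 29 were Rab genes. The counts of Rab genes and of their partners called in these reads, and the correlations with GC content and length, are therefore given with and without that library, while levels and paralog shares are given for each group with all its libraries. Shank3 itself had 294, 298 and 319 RPM (recovered reads per 1000000 reads of the library) in UNC0642 mutants, 337, 348 and 321 in saline mutants and 295, 309 and 357 in wild type, and reads per gene with an unnamed allele are no check of the genotype. All 10 markers of excitatory cortical neurons were detected, with sums of 6640 to 6970 RPM in UNC0642 mutants, 7200 to 7700 in saline mutants and 6610 to 7290 in wild type.

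The stretch around the nucleotide-binding loop, where a Rab protein holds the phosphates of GTP or GDP, is shown for the families on which the results turn, because it shows both how alike the paralogs are and where reads can tell them apart. Codons for this loop were found in the longest annotated coding sequence of 51 of the 53 genes. The following are 48 coding bases of each gene, 5′ to 3′, from transcripts of GENCODE M21, with capitals at the positions that differ among the members of a family.
Rab1: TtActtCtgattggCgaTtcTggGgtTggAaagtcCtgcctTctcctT
Rab1b: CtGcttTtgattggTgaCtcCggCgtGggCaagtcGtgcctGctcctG
Rab33a: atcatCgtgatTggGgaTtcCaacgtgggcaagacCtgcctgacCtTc
Rab33b: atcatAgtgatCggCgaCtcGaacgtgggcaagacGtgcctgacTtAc
Rab3a: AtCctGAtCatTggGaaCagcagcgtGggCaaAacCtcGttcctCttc
Rab3b: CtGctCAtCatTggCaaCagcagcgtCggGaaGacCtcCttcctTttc
Rab3c: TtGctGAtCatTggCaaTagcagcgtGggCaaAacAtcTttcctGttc
Rab3d: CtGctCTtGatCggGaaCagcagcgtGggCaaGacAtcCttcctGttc
Rab6a: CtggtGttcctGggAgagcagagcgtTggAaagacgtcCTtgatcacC
Rab6b: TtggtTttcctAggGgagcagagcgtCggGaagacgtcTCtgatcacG

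The genes shown lie on chromosomes 11 (Rab1), 19 (Rab1b), X (Rab33a), 3 (Rab33b), 8 (Rab3a), 4 (Rab3b), 13 (Rab3c), 9 (Rab3d and Rab6b) and 7 (Rab6a). The row named Rab1 was matched to the gene annotated as Rab1a. Bases differ at 12 of the 48 positions in the Rab1 family, at 8 in Rab33, at 14 in Rab3 and at 9 in Rab6. Over whole coding sequences, family members were 64.5% (Rab7 and Rab7b) to 79.6% (Rab3b and Rab3d) identical. The longest run that any pair shared was 38 bases, between Rab1 and Rab1b. At the other end of the protein, where the lipid anchors attach, the last 2 codons both encoded cysteine in 15 genes, the last and third-last did in 19, and another arrangement within the last 5 codons was found in 19. There were 8 genes with a near-identical stretch in another annotated gene, of at least 95% identity over at least 300 bases, whose levels are uncertain for that reason. They are Rab2a, Rab5b, Rab6a, Rab7, Rab9 and Rab11b, which have processed pseudogenes, and Rab4b and Rab43, which share sequence with another annotated gene of the same chromosome.

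The Rab genes spanned a 997-fold range of level in wild-type cortex. Levels are given as RPKM, the RPM of the recovered reads divided by the kilobases of annotated exon, so that genes can be compared, and are means ± SD of 3 libraries. In wild type 22 of the 53 were above 20 on this scale, 25 lay between 1 and 20, and 6 were below 1, with a median of 15.9. The 10 highest together held 64.2 to 66.5% of the sum over all 53 genes in the 9 libraries. Read counts ranged from 5 to 17723 per gene and library, and 51 of the 53 had at least 10 reads in every library. Neighbours in the order mostly could not be separated, since 35 of 52 neighbouring pairs overlapped in their wild-type libraries.

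**Figure D1:**
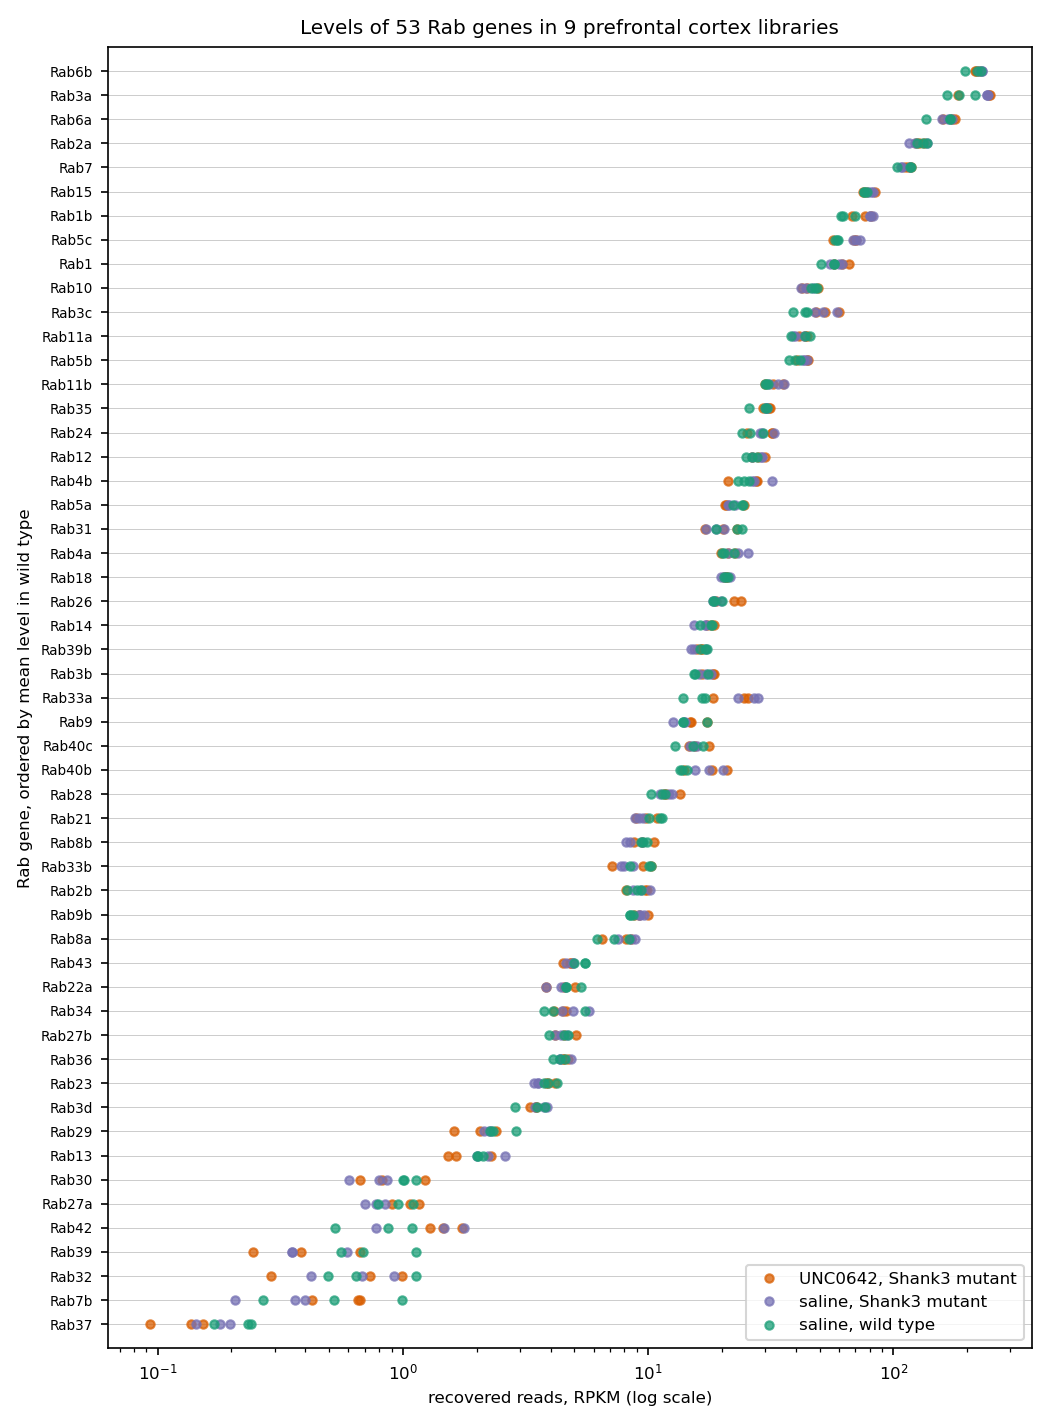
Level of each of the 53 Rab genes in every library, in RPKM of the recovered reads on a log axis, with 1 point per library, coloured by group and ordered by the wild-type mean. The points of a gene lie close together compared with the 997-fold spread between genes, from Rab6b at the top to Rab37 at the bottom.

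Rab genes of the endoplasmic reticulum and Golgi held the largest share of the sum, 41.2% ± 0.996 in UNC0642 mutants, 41.1% ± 0.173 in saline mutants and 41.8% ± 0.773 in wild type (SD, n = 3 each), over 15 genes. Rab6b, a paralog enriched in neurons that acts in retrograde transport from the Golgi, had the highest mean of all in wild type, 214 ± 15.7. It had 219 ± 3.63 in UNC0642 mutants and 228 ± 3.50 in saline mutants, where the means of Rab3a were higher. In wild type its libraries (196.8 to 227.1) overlapped with those of Rab3a (165.3 to 216.1). The lead of Rab6b also rests on the length used. Annotated exon came to 5031 bases for Rab6b and 2226 for Rab3a, and the longest transcript to 5007 and 1556. Scaled by the longest transcript, Rab3a was above Rab6b in wild type. Rab6a, the widely expressed paralog of Rab6b, had 170 ± 9.95 in UNC0642 mutants, 166 ± 7.85 in saline mutants and 159 ± 19.8 in wild type. Rab2a, which acts between the endoplasmic reticulum and the Golgi, had 128 ± 5.22 in UNC0642 mutants, 125 ± 10.8 in saline mutants and 131 ± 5.97 in wild type. The Rab1 proteins, needed for transport from the endoplasmic reticulum to the Golgi, followed: in wild type Rab1b had 64.4 ± 4.72 and Rab1 55.0 ± 3.82. Rab18, a regulator of lipid droplets and of the endoplasmic reticulum, had 20.7 in wild type, Rab39b, a gene of X-linked intellectual disability in humans, 17.0, and Rab33a 15.9. Rab33b, Rab2b, Rab43 and Rab36 lay between 9.59 and 4.34. Rab30, Rab42 and Rab39 were at or near 1 in wild type, with 1.05, 0.830 and 0.793.

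Of the genes of regulated secretion Rab3a, the main Rab protein of synaptic vesicles, was the highest and had 226 ± 36.5 in UNC0642 mutants, 242 ± 1.08 in saline mutants and 189 ± 25.6 in wild type. Rab3c, another paralog of synaptic vesicles, had 53.7 ± 5.88 in UNC0642 mutants, 52.9 ± 5.62 in saline mutants and 42.5 ± 2.97 in wild type. In wild type Rab26, which directs synaptic vesicles to autophagy, had 19.0, Rab3b 16.2, Rab27b 4.39, Rab3d 3.40 and Rab27a 0.948. Rab37, a Rab protein of secretory granules, was the lowest of all 53, with 0.128 ± 0.0312 in UNC0642 mutants, 0.174 ± 0.0271 in saline mutants and 0.215 ± 0.0393 in wild type. The 8 genes together held 18.1% ± 1.62 of the sum in UNC0642 mutants, 18.6% ± 0.169 in saline mutants and 16.3% ± 0.889 in wild type.

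Recycling and transport to the plasma membrane were represented by 12 genes, with 19.0% of the sum in UNC0642 mutants, 18.9% in saline mutants and 19.8% in wild type. Rab15, which acts in receptor recycling, led with 79.1 ± 4.94 in UNC0642 mutants, 81.0 ± 1.90 in saline mutants and 76.6 ± 1.10 in wild type. Rab10, which delivers vesicles to the plasma membrane, had 47.6 in wild type, and Rab11a and Rab11b, of the slow recycling route that carries AMPA receptors to the spine surface, had 42.5 and 30.3. Rab35, Rab12, Rab4b and Rab4a, the last 2 of them of the fast recycling route, lay between 28.8 and 20.9 in wild type. Rab14 had 17.5, Rab8b 9.62, Rab8a 7.26 and Rab13, a Rab protein of epithelial junctions, 2.05. The place of Rab14 depends on the length used, since it has 13589 bases of annotated exon but 5003 in its longest transcript.

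Early endosomes were represented by 6 genes with 9.16% of the sum in UNC0642 mutants, 9.21% in saline mutants and 9.44% in wild type. All 3 Rab5 paralogs, which drive fusion of early endosomes, were above 20 in wild type, with 58.5 for Rab5c, 39.6 for Rab5b and 23.6 for Rab5a. Rab31 had 22.0, Rab21, which carries integrins, 10.9 and Rab22a 4.86. Of late endosomes, lysosomes and autophagy, Rab7, which takes late endosomes to the lysosome, was the highest, with 115 ± 3.30 in UNC0642 mutants, 111 ± 5.22 in saline mutants and 113 ± 8.32 in wild type. In wild type Rab24 had 26.5, Rab9 15.0, Rab9b 8.52 and Rab29 2.49, while Rab32, of lysosome-related organelles, had 0.759 and Rab7b 0.594. The 5 remaining genes were Rab40c (15.0 in wild type) and Rab40b (13.8), which act in ubiquitin ligases, Rab28 (11.1), Rab34 (4.47) and Rab23 (3.98), a negative regulator of Hedgehog signalling. Rab42 and Rab37 were the 2 genes with fewer than 10 reads in at least 1 library, and their levels rest on few reads.

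In 15 families 2 or more paralogs were measured, and how far 1 paralog led differed widely between families. The share of a paralog is its part of the family's summed RPKM in a library. Rab7 held 99.5% ± 0.130 of its family in UNC0642 mutants, 99.7% ± 0.0886 in saline mutants and 99.5% ± 0.371 in wild type. Also above 80% in wild type were Rab39b (95.5%, against 4.48% for Rab39), Rab2a (93.7%, against 6.32% for Rab2b), Rab27b (82.1%, against 17.9% for Rab27a) and Rab31 (81.8%, against 18.2% for Rab22a). In the Rab3 family Rab3a held 74.9% ± 1.89 in UNC0642 mutants, 76.7% ± 0.999 in saline mutants and 75.1% ± 2.04 in wild type, with 17.0% for Rab3c, 6.53% for Rab3b and 1.37% for Rab3d in wild type. Pairs close to an even split in wild type were Rab6b and Rab6a (57.5% and 42.5%), Rab8b and Rab8a (57.1% and 42.9%), Rab11a and Rab11b (58.3% and 41.7%), Rab4b and Rab4a (54.1% and 45.9%), Rab1b and Rab1 (53.9% and 46.1%) and Rab40c and Rab40b (51.8% and 48.2%). Rab9 held 63.6% against 36.4% for Rab9b, and Rab5c held 48.1%, Rab5b 32.5% and Rab5a 19.4% of the Rab5 family. The length scaling sets the order in 6 families: by reads alone Rab1, Rab3c, Rab5b, Rab9b, Rab11b and Rab33b led theirs.

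The widest difference in mean share between saline mutants and wild type was in the Rab33 family. Rab33a, of secretory vesicles bound for the axon, is counted in this report with the genes of the endoplasmic reticulum and Golgi. It held 77.5%, 72.8% and 64.3% in UNC0642 mutants, 77.8%, 72.8% and 77.6% in saline mutants and 66.9%, 62.2% and 57.5% in wild type. Rab33b, a Golgi Rab protein that also binds the autophagy machinery, held the rest. All saline mutant libraries were above all wild-type ones, and the means were 76.1% ± 2.82 in saline mutants and 62.2% ± 4.73 in wild type (SD, n = 3 each). The leading share did not overlap between saline mutants and wild type in 5 of the 15 families. Of all genes 40.7% did not overlap in RPM between these groups, which is a measure of single genes and not of shares. Shares in families of other genes were not counted. The first principal component also separates these groups. Besides Rab33a the leading share was higher for Rab1b (57.9% in saline mutants and 53.9% in wild type) and Rab5c (52.0% in saline mutants and 48.1% in wild type). It was lower for Rab2a (93.0% in saline mutants and 93.7% in wild type) and Rab9 (59.3% in saline mutants and 63.6% in wild type). An exact two-sided permutation test over the libraries gave p = 0.1 for each, the smallest value that 3 against 3 allows, and an adjusted p of 0.3 over the 15 families. With all libraries no family separated UNC0642 mutants from saline mutants, with a smallest adjusted p of 0.5, or from wild type, with 0.92, by the same exact test. The result against wild type depends on UNC0642 replicate 3. UNC0642 replicates 1 and 2 lay above all wild-type libraries for Rab33a and Rab5c, and below them for Rab2a, Rab6b and Rab40c. Replicate 3 did not do so in any of these families, and the test was not run without it.

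**Figure D2:**
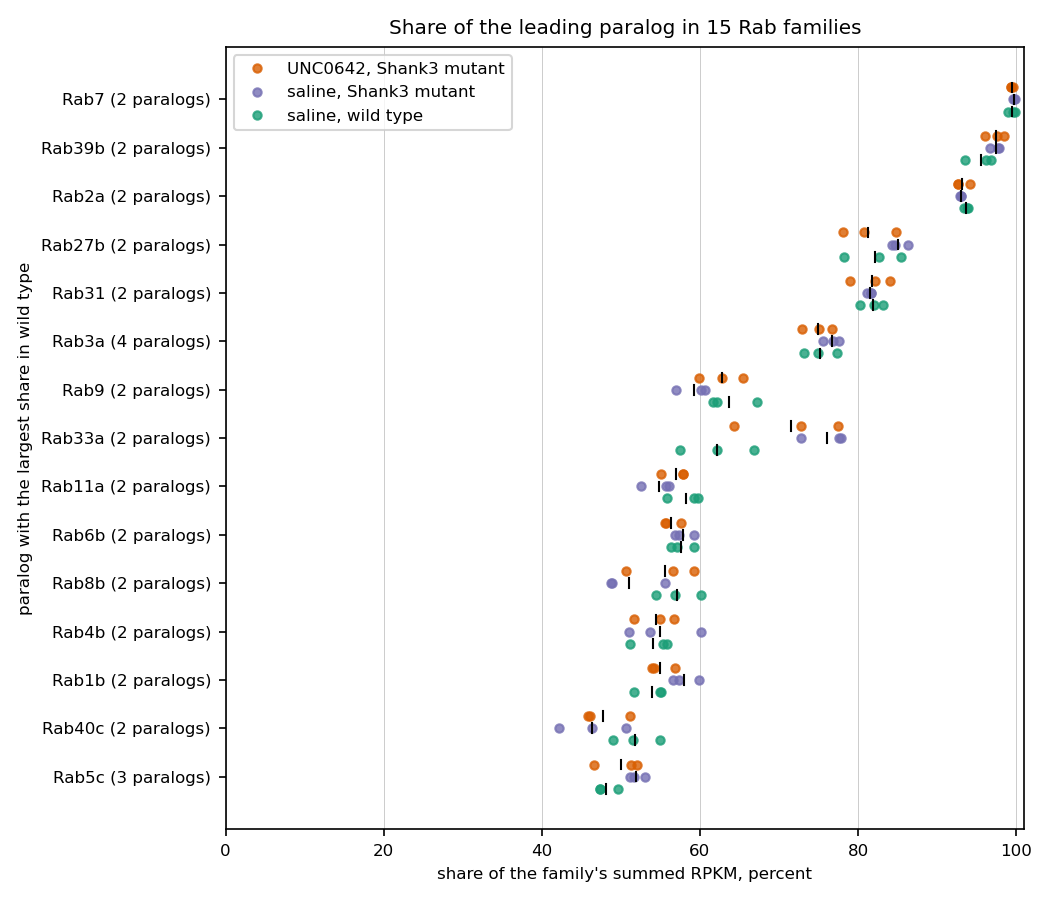
Share of the leading paralog in each of the 15 families, in percent of the family's summed RPKM, with 1 point per library and a black bar at the mean of each group. Rab33a shows the widest gap between saline mutants (mean 76.1%) and wild type (mean 62.2%), and the UNC0642 points run between 64.3% and 77.5%.

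In saline mutants against wild type, Rab33a and Rab1b were higher and no Rab gene was lower at an adjusted p under 0.05 (limma-voom on the recovered reads, all genes adjusted together). These 2 are 3.77% of the Rab genes, against 11.9% of all 14444 genes called in either direction, 5.13% called higher and 6.81% called lower. The median log2 difference was 0.06 over the 53 Rab genes and -0.01 over all genes, and 30 of the 53 were positive. The direction of that median turned when the division of the libraries, wild type and UNC0642 replicate 3 against the rest, was a term of the fit, to -0.03 over the Rab genes with 21 of 53 positive, against -0.01 over all genes. All wild-type libraries lie on one side of that division and all saline mutant libraries on the other. In that fit, division and genotype are therefore told apart by UNC0642 replicate 3 alone, and the turn rests on that library. With the group as the only term, 8 Rab genes and 4668 genes in all had an unadjusted p under 0.05 by limma-voom. The deposited values, tested with limma on log2(value + 0.5), gave 0 genes and 0 Rab genes called, 0% of the table, with 19 genes and 0 Rab genes at an unadjusted p under 0.05. The authors' adjustment brings saline mutants and wild type, which lie wholly in opposite sets of libraries, close together for every gene. The test of the deposited values therefore cannot decide whether these groups differ. Without UNC0642 replicate 3 the deposited values again gave 0 called, with 31 genes and 0 Rab genes at an unadjusted p under 0.05. On that scale the Rab genes of smallest p were Rab33a (0.20), Rab1b (0.10), Rab8b (-0.10), Rab43 (-0.08), Rab40b (0.11) and Rab39 (-0.23), each with an adjusted p of 1.

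Rab33a had 28.4, 29.6 and 21.3 RPM in UNC0642 mutants, 32.5, 26.9 and 31.2 in saline mutants and 19.8, 19.2 and 16.1 in wild type. Every library of saline mutants, and of UNC0642 mutants, was above every wild-type one, and UNC0642 replicate 3 was the closest to wild type. The log2 difference of saline mutants from wild type was 0.71 ± 0.15 (SE), with an adjusted p of 0.020 by limma-voom. Rab1b had 174, 185 and 154 RPM in UNC0642 mutants, 182, 187 and 182 in saline mutants and 158, 139 and 141 in wild type. Here the saline mutants again lay above all wild-type libraries, while UNC0642 replicate 3 fell within the wild-type range. The log2 difference of saline mutants from wild type was 0.33 ± 0.08 (SE), with an adjusted p of 0.030 by limma-voom. Both calls were lost when any of several single libraries was left out, which also makes a group smaller. By limma-voom the adjusted p of Rab33a was 0.098, 0.058, 0.090 and 0.085, and that of Rab1b 0.12, 0.077, 0.10 and 0.093, without wild-type replicate 2, wild-type replicate 3, saline mutant replicate 1 and saline mutant replicate 3, and that of Rab1b was also 0.075 without saline mutant replicate 2. With the division of the libraries as a term the log2 differences were 0.27 ± 0.20 and 0.11 ± 0.12 (SE), with an adjusted p of 0.98 for each and 0 genes called. That fit tells division from genotype by UNC0642 replicate 3 alone.

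Without UNC0642 replicate 3, which enters the estimate of the spread, 7 Rab genes differed between saline mutants and wild type, 13.2% of the 53, against 24.6% of all genes. The 6 that were higher, 11.3% of the 53 and 11.3% of all genes, were Rab33a, Rab1b, Rab5c, Rab3a, Rab3c and Rab40b. Rab21 was the 1 that was lower. Rab3a had 551, 546 and 408 RPM in UNC0642 mutants, 538, 536 and 541 in saline mutants and 481, 413 and 368 in wild type. The saline mutant libraries of Rab3a were close together, at 538 ± 2.41 RPM (SD, n = 3), and its lowest values were in the wild-type and UNC0642 libraries of replicate 3. Its log2 difference from wild type was 0.37 ± 0.12 (SE), with an adjusted p of 0.056 by limma-voom with all libraries and 0.0062 without UNC0642 replicate 3. Rab3c had 722, 636 and 582 RPM in UNC0642 mutants, 625, 576 and 710 in saline mutants and 538, 527 and 471 in wild type, so that no mutant library was as low as any wild-type one. Its log2 difference was 0.31 ± 0.10 (SE), with an adjusted p of 0.053 by limma-voom and 0.016 without UNC0642 replicate 3.

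Rab5c had 152, 155 and 125 RPM in UNC0642 mutants, 160, 150 and 155 in saline mutants and 130, 126 and 129 in wild type. UNC0642 replicate 3 lay below all wild-type libraries of Rab5c, and the other mutant libraries above them. The log2 difference of saline mutants was 0.27 ± 0.09 (SE), with an adjusted p of 0.056 by limma-voom and 0.0060 without UNC0642 replicate 3. Rab40b had 36.5, 42.2 and 28.2 RPM in UNC0642 mutants, 40.6, 31.1 and 35.7 in saline mutants and 28.8, 27.0 and 27.5 in wild type. For Rab40b the adjusted p was 0.12 by limma-voom with all libraries and 0.034 without UNC0642 replicate 3. Rab21 had 45.0, 49.4 and 54.7 RPM in UNC0642 mutants, 44.6, 48.3 and 46.3 in saline mutants and 50.8, 57.7 and 56.6 in wild type. Its saline mutant libraries were all below wild type, with a log2 difference of -0.24 ± 0.09 (SE) and an adjusted p of 0.097 by limma-voom, or 0.042 without UNC0642 replicate 3. A fit with the division of the libraries as a term tells it from genotype by UNC0642 replicate 3 alone. In that fit the difference of saline mutants from wild type turned its sign for Rab3a (-0.06 ± 0.14), Rab5c (-0.03 ± 0.11) and Rab40b (-0.13 ± 0.19). It was 0.09 ± 0.15 for Rab3c and -0.04 ± 0.14 for Rab21 (log2 ± SE), and the adjusted p by limma-voom was 0.99 or 1 for all of these genes.

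**Figure D3:**
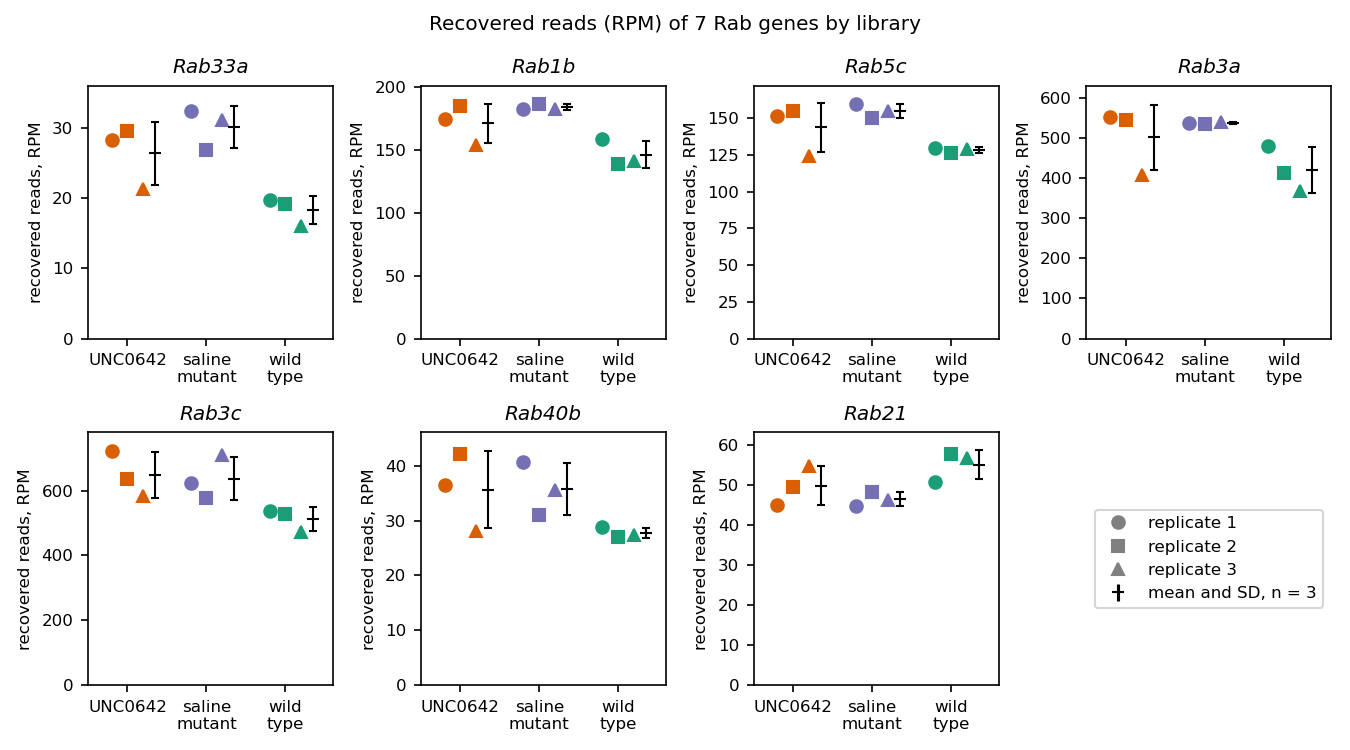
Recovered reads (RPM) in each library for the 7 Rab genes called between saline mutants and wild type without UNC0642 replicate 3, with symbols for the replicates and the mean and SD of 3 libraries at the right of each group. In 6 panels the saline mutants lie above wild type and in the Rab21 panel under it, and the UNC0642 triangle (replicate 3) lies on the wild-type side of the other 2 UNC0642 points.

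Counted by libraries alone, 11 Rab genes were higher in every saline mutant library than in every wild-type one, which is 20.8% of the 53 and 20.2% of all genes. They were Rab1b, Rab3a, Rab3c, Rab4b, Rab5b, Rab5c, Rab9b, Rab11b, Rab15, Rab33a and Rab40b. There were 5 genes lower in every saline mutant library, namely Rab21, Rab22a, Rab23, Rab30 and Rab43, which is 9.43% of the 53 and 20.5% of all genes. For these 16 genes UNC0642 replicate 3 was nearer the wild-type mean in 13, UNC0642 replicate 1 in 3 and UNC0642 replicate 2 in 2. The same count was not made over all genes that did not overlap. UNC0642 replicate 3 was also nearer wild type in 28 of the 29 genes at least 8-fold apart, none of them Rab genes. The count is therefore not read as a trait of the Rab genes. By role, the genes of regulated secretion had 6 of 8 positive differences with a median of 0.05, and those of recycling 8 of 12 with a median of 0.09. Those of the endoplasmic reticulum and Golgi had 8 of 15 with a median of 0.06, those of early endosomes 2 of 6 with a median of -0.15, those of late endosomes 2 of 7 with a median of -0.14, and the rest 4 of 5 with a median of 0.11, all on the log2 scale of the recovered reads.

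Levels of cell type markers also differed between these libraries. Summed astrocyte markers (8 of 8 measured) came to 4210 to 7100 RPM in UNC0642 mutants, 4730 to 5130 in saline mutants and 5490 to 7440 in wild type. Endothelial markers (7 of 7) came to 160 to 177 in UNC0642 mutants, 146 to 182 in saline mutants and 186 to 242 in wild type, and markers of all neurons (5 of 5) to 4860 to 6120 in UNC0642 mutants, 5410 to 6190 in saline mutants and 4310 to 5920 in wild type. In saline mutants against wild type, 5 of 5 markers of all neurons were positive (median 0.165) and 2 were called higher by limma-voom. Of the endothelial markers 1 of 7 was positive (median -0.363) and 1 was called lower. Of the 8 inhibitory markers 1 was called higher and 1 lower, against 5.13% of all genes called higher and 6.81% called lower. Oligodendrocyte markers (8 of 8) came to 2690 to 5150 in UNC0642 mutants, 1580 to 3650 in saline mutants and 3080 to 5120 in wild type. The log2 difference of saline mutants from wild type was positive for 0 of these 8, with a median of -0.70, and that of UNC0642 from saline mutants for 8 of 8, with a median of 0.52, while 0 were called in either comparison. Markers of oligodendrocyte precursors (5 of 5) came to 259 to 364 in UNC0642 mutants, 264 to 313 in saline mutants and 299 to 438 in wild type, with 0 of 5 positive and 1 called lower in saline mutants against wild type. Markers of meningeal fibroblasts (12 of 12) came to 137 to 298 in UNC0642 mutants, 176 to 206 in saline mutants and 119 to 196 in wild type, with 12 of 12 positive and a median of 0.48 in saline mutants against wild type. Microglial markers (8 of 8) came to 367 to 458 in UNC0642 mutants, 363 to 405 in saline mutants and 358 to 516 in wild type. Markers at 0 in all libraries numbered 0 in these lists. UNC0642 replicate 3 and wild-type replicate 3 had the highest astrocyte sums and the lowest sums of the 5 markers of all neurons. The other neuronal lists went the other way in these libraries: the 8 inhibitory markers had their highest sums of all 9 libraries there, 965 and 954 RPM, and the excitatory markers the highest of each group, 6971 and 7291 RPM. Both libraries also had the lowest totals of Rab RPM, 6436 in UNC0642 replicate 3 and 5980 in wild-type replicate 3, against 6467 to 6994 in the other 7 libraries. The part of cell composition in the differences of the Rab genes was not tested, and in bulk tissue fewer cells of a type and less RNA per cell cannot be told apart.

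Between UNC0642 mutants and saline mutants no Rab gene was called at an adjusted p under 0.05. By limma-voom on the recovered reads 0 of 53 Rab genes and 0 of 14444 genes (0%) were called, with 0 Rab genes and 536 genes at an unadjusted p under 0.05, and limma with an intensity trend also gave 0. The median log2 difference was 0.02 over the Rab genes and 0.02 over all genes, and 29 of 53 were positive. Without UNC0642 replicate 3 there were again 0 called, with 2 Rab genes and 526 genes at an unadjusted p under 0.05. In the deposited values 0 were called as well, with 1 Rab gene and 281 genes at an unadjusted p under 0.05 by limma, or 2 Rab genes and 1090 genes without UNC0642 replicate 3.

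The 6 Rab genes with the smallest p in UNC0642 against saline mutants were all positive, with an adjusted p of 0.97 each by limma-voom. Rab7b, which acts between endosomes and the Golgi, had 1.96, 3.09 and 3.04 RPM in UNC0642 mutants and 0.956, 1.84 and 1.67 in saline mutants, with a log2 difference of 0.87 ± 0.44 (SE). In wild type Rab7b had 1.25, 2.41 and 4.58, a range that took in all the UNC0642 values. Rab27a, of regulated secretion, had 3.52, 4.52 and 4.16 RPM in UNC0642 mutants, against 2.71, 3.02 and 3.28 in saline mutants, a log2 difference of 0.44 ± 0.22 (SE). Rab26 differed by 0.19 ± 0.10, Rab23 by 0.18 ± 0.09, Rab9 by 0.20 ± 0.12 and Rab14 by 0.13 ± 0.08 (SE) on the log2 scale. Rab26 had 68.5, 63.8 and 54.0 RPM in UNC0642 mutants, against 56.4, 53.5 and 52.6 in saline mutants, so that replicate 3 was the UNC0642 library within the saline range. Rab7b, Rab9, Rab14, Rab23 and Rab27a were higher in every UNC0642 library than in every saline one, 9.43% of the 53 against 5.80% of all genes. Rab6b was lower in all of them, 1.89% of the 53 against 3.89% of all genes (11.3% against 9.69% in either direction), with 1120, 1096 and 1084 RPM in UNC0642 mutants, against 1160, 1127 and 1154 in saline mutants. In the deposited values, those of smallest p were Rab26 (0.21), Rab3c (0.19), Rab13 (-0.28), Rab1 (0.12), Rab9 (0.16) and Rab29 (-0.24) on the log2(value + 0.5) scale, each with an adjusted p of 1.

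UNC0642 mutants and wild type differed in 0 Rab genes and 8 genes (0.0554% of the table) by limma-voom with all libraries, and in 7 Rab genes and 2959 genes (20.5%) without UNC0642 replicate 3. This comparison shares its wild-type libraries with that of saline mutants, and with that of UNC0642 against saline its UNC0642 libraries. With all libraries 5 Rab genes and 2794 genes had an unadjusted p under 0.05. Those of smallest p were Rab3c, with a log2 difference of 0.33 ± 0.10 (SE), Rab33a, with 0.51 ± 0.15, Rab1b, with 0.22 ± 0.08, Rab40b, with 0.34 ± 0.15, Rab39, with -0.90 ± 0.41, and Rab3a, with 0.25 ± 0.12, at an adjusted p of 0.15 to 0.26. The 7 called without UNC0642 replicate 3 were all higher, against 10.4% of all genes called higher, and were Rab33a, Rab3a, Rab3c, Rab40b, Rab1b, Rab5c and Rab26. Their log2 differences were then 0.67, 0.39, 0.41, 0.51, 0.30, 0.26 and 0.29, and the adjusted p by limma-voom lay between 0.0043 and 0.025. The comparison then rests on UNC0642 replicates 1 and 2.

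Across all libraries, Rab3c, Rab9b, Rab33a and Rab42 were higher in every UNC0642 library than in every wild-type one, 7.55% of the 53 against 9.84% of all genes. Rab37 and Rab43 were lower, 3.77% of the 53 against 7.62% of all genes. Rab39, which acts at the Golgi and in autophagy, had 1.14, 1.98 and 0.727 RPM in UNC0642 mutants and 1.66, 2.04 and 3.38 in wild type, so that its groups overlapped. In the deposited values 0 genes were called by limma, with 2 Rab genes and 1238 genes at an unadjusted p under 0.05, or 0 called with 4 Rab genes and 2020 genes without UNC0642 replicate 3. The Rab genes of smallest p there were Rab3c (0.24), Rab33a (0.33), Rab26 (0.17), Rab37 (-0.42), Rab40b (0.25) and Rab39 (-0.50), with an adjusted p of 0.58 to 0.61.

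The differences of the Rab genes went with the GC content of their transcripts, as did those of all genes. For saline mutants against wild type, Spearman's rho between the log2 difference and the GC content of the longest transcript was 0.447 over the 53 Rab genes and 0.242 over 14311 annotated genes, a description across genes, which are not independent replicates and share the same libraries. Of the 26 Rab genes above their median GC content 21 were positive, against 9 of the other 27. With transcript length rho was -0.379 over the Rab genes and -0.383 over all genes. For UNC0642 against saline mutants the signs were opposite, -0.456 and -0.298 with GC content and 0.295 and 0.243 with length, and 8 of 26 Rab genes of high GC content were positive, against 21 of 27. Without UNC0642 replicate 3 those of UNC0642 against saline mutants were -0.292 and -0.13 with GC content and 0.0407 and -0.0174 with length, and 12 of 26 Rab genes of high GC content were positive. Those of saline mutants against wild type were then 0.449 and 0.242 with GC content and -0.378 and -0.383 with length. These 2 comparisons share the saline mutant libraries. Rab33a (53.5% GC), Rab1b (58.9%), Rab3a (55.0%) and Rab5c (54.7%) were on the GC-rich side, while Rab3c (41.9%), which was also higher in saline mutants without UNC0642 replicate 3, was not. Of the other genes called without that library, Rab40b, which was higher, had 49.4% and Rab21, which was lower, had 42.7%. The part of GC content in these differences was not tested.

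**Figure D4:**
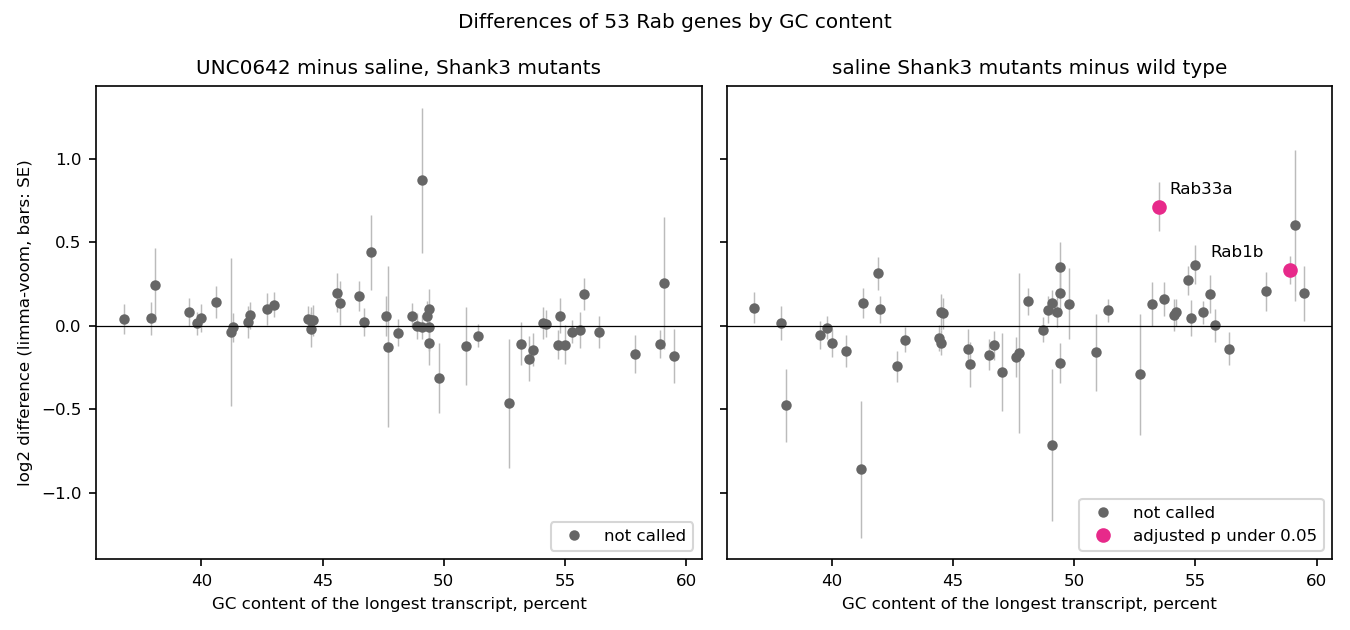
Log2 difference of each of the 53 Rab genes (recovered reads, limma-voom, bars showing the SE) against the GC content of its longest transcript in percent, for UNC0642 against saline mutants on the left and saline mutants against wild type on the right. Points rise to the right in the saline mutant panel (rho 0.447), where Rab33a and Rab1b are called, and fall in the UNC0642 panel (rho -0.456).

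The partners of the Rab proteins were measured in the same fits, from lists of known factors. In saline mutants against wild type, 1 of 5 dissociation inhibitors and escort proteins was higher by limma-voom, against 5.13% of all genes called higher and 6.81% called lower, and none was lower. It was Rabac1, a receptor that frees prenylated Rab proteins from their inhibitor, with 145, 149 and 100 RPM in UNC0642 mutants, 153, 136 and 146 in saline mutants and 100, 91.0 and 93.5 in wild type. Its log2 difference was 0.61 ± 0.13 (SE), with an adjusted p of 0.021 by limma-voom. None of the 3 genes of the geranylgeranyl transferase list was called. They are Rabggta, Rabggtb and Rabif, the last of which is not a subunit of the enzyme. Of 41 measured exchange factors 2 were higher, Trappc1 (0.63 ± 0.14) and Trappc2l (0.48 ± 0.11), subunits of the TRAPP complexes that activate Rab1 proteins, and 2 were lower, Dennd5b (-0.49 ± 0.11) and Ric1 (-0.47 ± 0.14), which activates Rab6. Of 37 GTPase-activating proteins 0 were higher and 2 lower, Tbc1d2 (-0.85 ± 0.23), which acts on Rab7, and Tbc1d12 (-0.47 ± 0.14). Of 47 measured effectors 1 was higher, Rilpl2 (0.55 ± 0.16), and 4 were lower. These were Rufy2 (-0.41 ± 0.10), Lrrk2 (-0.47 ± 0.13), a kinase that phosphorylates several Rab proteins, Pclo (-0.27 ± 0.08), a scaffold of the presynaptic active zone, and Bicd1 (-0.39 ± 0.12), a dynein adaptor that binds Rab6, all values being log2 differences ± SE. Without UNC0642 replicate 3 more partners were called, as were more genes in all, 11.3% higher and 13.3% lower. There were then 2 inhibitors and escorts higher and 0 lower, 0 genes of the transferase list, 6 exchange factors higher and 6 lower, 1 activating protein higher and 6 lower, and 3 effectors higher and 14 lower. The median log2 differences were 0.09, 0.21, -0.05, -0.09 and -0.17 for inhibitors and escorts, the transferase list, exchange factors, activating proteins and effectors, against -0.01 for all genes. With the division of the libraries as a term, told from genotype by UNC0642 replicate 3 alone, no gene of the table was called in this comparison. Between UNC0642 and saline mutants, and between UNC0642 mutants and wild type, 0 partners were called with all libraries. Without UNC0642 replicate 3 there were again 0 between UNC0642 and saline mutants. Between UNC0642 mutants and wild type 2 inhibitors and escorts, 1 gene of the transferase list, 6 exchange factors, 1 activating protein and 1 effector were then higher, against 10.4% of all genes. In that comparison 4 exchange factors, 5 activating proteins and 10 effectors were lower, against 10.1% of all genes.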

How the data were processed

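Per the labels' protocols, Trizol was used to extract total RNA of the prefrontal cortex of mice, and libraries were stranded and depleted of ribosomal RNA. cutadapt, TopHat2 and HTSeq with mm9 are named in the submitters' processing notes. Tool versions, strand setting and normalization: not given in the sources used here.

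Per gene, the deposited values are a signal that the authors name as CPM, in 1 column for each of 9 libraries. They are not plain CPM: none is 0, and each gene has the same mean log2 value in 2 sets of 5 and 4 libraries, to within 2.5e-09, where the next best of 255 divisions reaches 0.87. To recover whole reads, a mean prior of 3 reads was subtracted and the shift between sets was sought at which a gene's 9 values are whole to within 0.02 reads. All 14444 of 14444 genes had exactly 1 such shift, and no value was farther than 1.04e-04 reads from a whole number. Totals of recovered reads were 12233543, 16165483 and 15139774 for UNC0642 mutants, 12548293, 15227237 and 14345248 for saline mutants and 12035098, 13267359 and 12445073 for wild type. By limma-voom on these reads 1725 genes were called between saline mutants and wild type, 0 between UNC0642 and saline mutants and 8 between UNC0642 mutants and wild type.

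Deposited values were tested with limma 3.58.1 (R 4.3.3) and an intensity trend on log2(value + 0.5), which understates changes of low genes. Recovered reads were tested with limma-voom, with total reads as library size. Both used all 9 libraries, the group as the term, no filter and Benjamini-Hochberg adjustment over all genes, with calls at an adjusted p under 0.05. The recovery of reads and the limma-voom step were tested on simulated data. Exon lengths, chromosomes, GC content and transcript sequences came from GENCODE M21 for 14311 symbols. Its build is not mm9, so no coordinates are printed. Other tools were pandas 2.3.3, Biopython 1.88, scipy 1.17.1, numpy 2.4.6 and matplotlib 3.10.9 in Python 3.11.15.

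The Rab genes, roles, partner lists and the division of the libraries were chosen with earlier results of these data known. Named with values were the 10 highest and 5 lowest in level, every member of a family, called Rab genes or else the 6 of smallest p, and up to 3 called partners per list. Other called partners and the genes called without UNC0642 replicate 3 were named after their values were seen. Alternatives were upper-quartile or median-of-ratios factors, limma with a trend on the reads, pseudocounts of 0.1 and 1, filters of 10 reads (14444 genes kept) or a value of 1 (14425 genes kept) in 3 or more libraries, fits of 2 groups alone, a replicate block, each library left out in turn, the division as a term, and levels by longest transcript, without length or from the deposited values. Replicate numbers were not treated as pairs in the main fits. Correlations of same-numbered deviations ran between -0.134 and 0.26, which does not settle whether the libraries are paired. Those of UNC0642 mutants and wild type were all positive (0.194, 0.0366 and 0.26), while those of each other comparison had both signs.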

Additional observations from a re-analysis of the deposited data

How the results depend on the processing

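Genes called between saline mutants and wild type in the recovered reads (1725, with 2 Rab genes) numbered 0, with 0 Rab genes, when the division of the libraries was a term, and 3117, with 6 Rab genes, in the 2 groups alone. The division term is told from genotype by UNC0642 replicate 3 alone. Rab genes called were 4 with upper-quartile factors, a count given without that over all genes. Rab3c and Rab5c joined Rab33a and Rab1b there at the edge of the threshold, with an adjusted p of 0.049 and, rounded, 0.05 by limma-voom. The replicate block gave 5 Rab genes (Rab33a, Rab1b, Rab3a, Rab3c and Rab5c) and 2442 genes. Between UNC0642 mutants and wild type (8 genes) there were 36 genes with the replicate block, 0 in the 2 groups alone and 3 when the division entered the fit. The block changed no other call. Leaving out 1 library gave 13 to 3550 genes and 0 to 7 Rab genes between saline mutants and wild type, and 1 to 2959 genes and 0 to 7 Rab genes between UNC0642 mutants and wild type. The highest counts came without UNC0642 replicate 3. The lowest Rab counts came without wild-type replicate 2 or 3, or saline mutant replicate 1 or 3, at 0 each, and without saline mutant replicate 2, at 1. In the deposited values the 2 groups alone gave 5 genes between saline mutants and wild type, and leaving out 1 library gave 0 to 4 between UNC0642 mutants and wild type. Over all alternatives Rab33a in saline mutants ranged from 0.27 to 0.80 (adjusted p 0.0014 to 0.98 by limma-voom) and Rab1b from 0.11 to 0.39 (0.0037 to 0.98). Rab3a in UNC0642 mutants against wild type was 0.25, and it turned to -0.0338 when the division entered as a term. The leading paralog was the same in 9 of 15 families by reads without length, and in the deposited values the lead of the Rab40 family turned to Rab40b, with 49.7% for Rab40c there and 51.8% by recovered reads. Other causes were not tested. With 3 libraries a group, permutation tests cannot go below p = 0.1. Intervals between libraries cover spread that may be technical, and genes of few reads (Rab37, Rab42, Rab39, Rab7b and Rab32) are the least precise.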

Other observations

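The median coefficient of variation of RPM between libraries was 9.49% over the 53 Rab genes and 11.4% over all genes in UNC0642 mutants. It was 5.76% over the Rab genes and 8.15% over all genes in saline mutants, and 7.14% over the Rab genes and 10% over all genes in wild type. The number of reads per gene also sets this measure, and the difference was not tested. Rab18, a regulator of the endoplasmic reticulum and of lipid droplets, had 143, 144 and 140 RPM in UNC0642 mutants, 140, 135 and 148 in saline mutants and 145, 142 and 139 in wild type, with groups that overlapped. There were 4 Rab genes on the X chromosome, Rab33a, Rab39b, Rab9 and Rab9b, and Rab33a was the 1 of these that was called in any of the 3 comparisons with all libraries.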
